A study of Homo sapiens with 6 samples.

Results

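The genes described are 9 genes of antigen presentation: the class I heavy chains HLA-B, HLA-C, HLA-E and HLA-F, their light chain B2M, the peptide transporter subunits TAP1 and TAP2, the loading factor TAPBP, and CIITA, the activator of class II genes. They were taken by name, 9 out of 19327 protein-coding genes that measure 1 kb or more and lie on chromosomes 1 to 22 or X. Chromatin immunoprecipitation with sequencing was done in HEK293T, an established human embryonic kidney line with the SV40 large T antigen, grown without any labelled treatment and fixed with formaldehyde. The 5 peak lists each came from 1 library: H2AZ CST and H2AZ Abcam (antibodies from different suppliers against the histone variant H2A.Z), H3.3 (another variant, EMD/Millipore antibody), H4K16ac (acetylated lysine 16 of histone H4, CST antibody) and H3K79me2 (dimethylated lysine 79 of histone H3, CST antibody). An input library belongs to the series and was not analysed here. With 1 library per antibody there is no replicate spread, so no value below has a test. A missing peak says only that none passed the authors' threshold at an unknown read depth. The lists held between 44634 (H2AZ Abcam) and 76748 (H4K16ac) peaks on these chromosomes, with median widths from 287 bp (H4K16ac) to 496 bp (H3K79me2).

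Class I molecules carry peptides of proteins made inside the cell to the cell surface, where cytotoxic T cells read them. The proteasome cuts the peptides, TAP1 and TAP2 pump them into the endoplasmic reticulum, and tapasin, the product of TAPBP, holds the empty class I molecule at the transporter until a peptide fits. Nearly all nucleated cells have this machinery and raise it after interferon, whereas class II molecules and CIITA belong mainly to dedicated antigen-presenting cells. H2A.Z and H3.3 are known at the starts of active genes, KAT8 writes H4K16ac, and DOT1L writes H3K79me2 within transcribed genes.

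Every one of the 9 genes had a peak of H2AZ CST, H2AZ Abcam, H4K16ac and H3K79me2 inside it or within 5 kb, and 7 of 9 had one of H3.3. Such a peak is the common state: 81.5% of all protein-coding genes had it in either H2AZ list, 73.8% in the H3.3 list, 68.3% in the H4K16ac list and 62.7% in the H3K79me2 list. Among the 13411 genes between the shortest and the longest of the 9 in length the shares were 81.3% (H2AZ CST), 81.0% (H2AZ Abcam), 74.0% (H3.3), 69.0% (H4K16ac) and 63.5% (H3K79me2). HLA-B and B2M were the genes without H3.3. Within 1 kb of the start, H2AZ CST lay at 9 of 9 genes (69.4% of all genes), H2AZ Abcam at 9 (69.9%), H3.3 at 7 (62.5%), H4K16ac at 8 (51.3%) and H3K79me2 at 9 (54.6%). Genes of the same length range had start peaks in 69.8% (H2AZ CST), 69.7% (H2AZ Abcam), 63.3% (H3.3), 53.1% (H4K16ac) and 55.9% (H3K79me2). The exact 95% interval, for counting error only, was 53.9% to 55.3% for H3K79me2 at the start of all genes and of similar width for the others. The start is the annotated 5′ end. For HLA-E and CIITA the table used gives no strand and either end counted, which matters for CIITA: all of its peaks counted here lay at the end where the gene DEXI starts. All 5 lists were present at the starts of 6 of 9 genes, against 35.7% of all genes. By this count 0 of 9 had none, against 22.8%, but CIITA had none at its lower-coordinate end. The shares of all genes likewise count either end where no strand is given. Peaks below are described by the authors' −log10 q, which grows as the peak caller's false discovery rate falls, and by its rank within the same list.

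**Figure D1:**
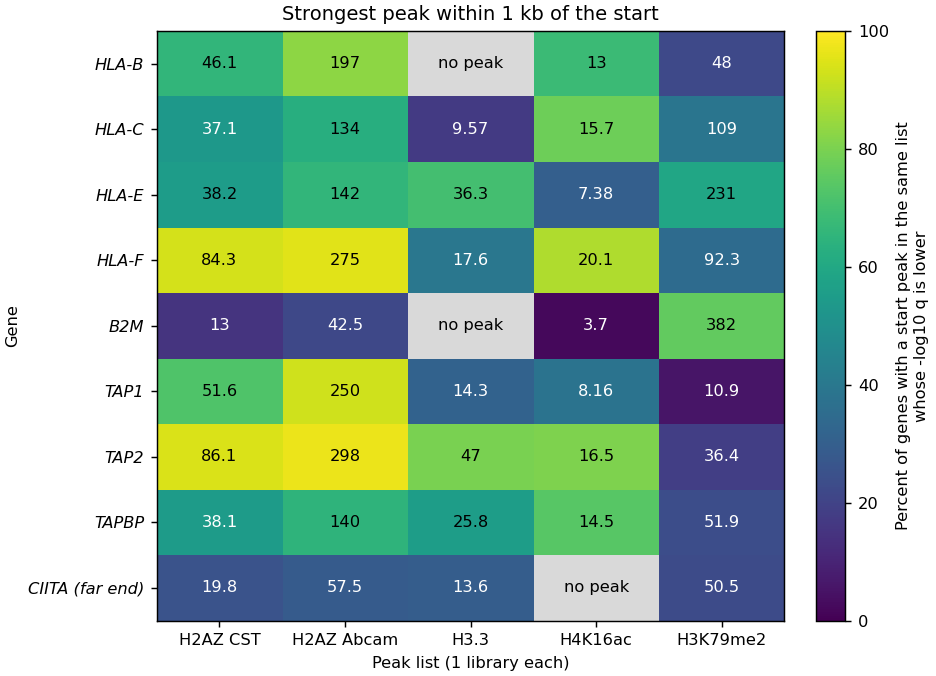
Strongest peak of each list within 1 kb of the start of each gene. Rows are genes, columns are the 5 lists with 1 library each, the number in a cell is the authors' −log10 q, and the colour gives the percentage of genes with a start peak in the same list whose value is lower. HLA-F and TAP2 are bright in both H2AZ columns, B2M is bright only for H3K79me2, and grey cells have no peak.

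The promoters of HLA-B and HLA-C are shown because these genes are the closest copies in the group and yet differ in H3.3. That of HLA-F is the third class I promoter in the sequence table, which is from RefSeq (GRCh38.p14) and held 7 of the 9 genes. They are the 250 bases before each start, at chr6:31357180-31357429 (minus strand) for HLA-B, chr6:31272093-31272342 (minus strand) for HLA-C and chr6:29723184-29723433 (plus strand) for HLA-F. Capitals mark matches, on either strand, to the letters CCAAT (the box bound by NF-Y, read as ATTGG on the other strand), TGACG (the core of the element bound by CREB), the NF-κB type pattern (GGG, any 2 bases, TT, any base, CC) and the interferon response type pattern (GAAA, any 2 bases, GAAA).
HLA-B: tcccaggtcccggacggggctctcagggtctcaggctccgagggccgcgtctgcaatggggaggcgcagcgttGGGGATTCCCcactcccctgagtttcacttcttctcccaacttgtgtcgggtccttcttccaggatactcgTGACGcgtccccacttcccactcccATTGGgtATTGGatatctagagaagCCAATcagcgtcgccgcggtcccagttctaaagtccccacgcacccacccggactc
HLA-C: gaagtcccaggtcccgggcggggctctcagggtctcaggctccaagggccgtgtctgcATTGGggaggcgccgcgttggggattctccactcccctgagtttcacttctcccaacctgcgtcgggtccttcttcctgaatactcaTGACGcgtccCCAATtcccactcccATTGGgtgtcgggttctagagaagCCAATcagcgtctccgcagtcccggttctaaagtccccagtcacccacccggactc
HLA-F: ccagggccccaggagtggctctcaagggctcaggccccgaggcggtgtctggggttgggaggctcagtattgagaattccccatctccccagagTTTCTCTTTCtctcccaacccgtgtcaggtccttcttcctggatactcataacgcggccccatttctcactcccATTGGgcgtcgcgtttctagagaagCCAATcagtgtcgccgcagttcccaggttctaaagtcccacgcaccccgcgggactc
All of them held CCAAT boxes in both orientations in the last 100 bases before the start. HLA-B and HLA-C held TGACG just upstream, from −106 and −105 bp, and HLA-F did not. Over the 300 bases around the start, which include 50 bases after it, HLA-B was identical to HLA-C in 88.5% of aligned positions and to HLA-F in 79.7%. The longest run without a difference was 25 bases for HLA-B with HLA-C. Of the 276 words of 25 bases in the HLA-B window, 2.54% also occurred in another listed promoter, those of HLA-C and HLA-G. No word of 36 bases from any of the 7 genes did. These windows do not reach the H3.3 peak of HLA-C, which runs from 228 to 623 bp after the start. Whether reads can be placed uniquely there was not tested. Reads shorter than such runs cannot be placed uniquely, the read length is unknown, and the later exons, which resemble each other more, were not compared here.

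HLA-B, a classical class I heavy chain (chromosome 6, 31353875 to 31357179, 3305 bp), had a single peak of each of 4 lists, all stacked on its start. Its −log10 q was 46.1 in H2AZ CST, 197 in H2AZ Abcam, 13 in H4K16ac and 48 in H3K79me2, and H3.3 had no peak. H2AZ CST ran from −328 to 461 bp around the start and H3K79me2 from −83 to 801 bp. The nearest H3.3 peak lay 42567 bp away. Among the genes with a start peak in the same list, HLA-B exceeded 66% for H2AZ CST and 83% for H2AZ Abcam but only 22.2% for H3K79me2. HLA-B thus stood above the median of marked genes in H2A.Z, farther in the H2AZ Abcam list, and low in H3K79me2.

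HLA-C, its closest relative (31268749 to 31272092, 3344 bp), had the same stack with H3.3 added. In H2AZ CST the −log10 q was 37.1, in H2AZ Abcam 134, in H3.3 9.57, in H4K16ac 15.7 and in H3K79me2 109. The H3.3 peak was narrow, 396 bp from 228 to 623 bp after the start, and its value exceeded that of only 16.9% of genes with H3.3 at the start. H4K16ac covered nearly the same bases, from 232 to 654 bp. H3.3 at HLA-C was thus present but low in its list, while HLA-B had start peaks of the 4 other lists only. Near-identical copies can lose reads, and whether this touches the H3.3 values of either gene was not tested.

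HLA-E, a non-classical heavy chain that presents leader peptides to natural killer cells (30489509 to 30494194, 4686 bp), had the strongest H3.3 and H3K79me2 of the 4 heavy chains. The −log10 q was 231 in H3K79me2 and 36.3 in H3.3, against 38.2 in H2AZ CST, 142 in H2AZ Abcam and 7.38 in H4K16ac, the lowest H4K16ac of the heavy chains. Counted from its lower-coordinate end, all 5 lists had a peak in the first kilobase of the gene. Their summits lay at 308 bp (H3.3), 406 bp (H4K16ac), 486 bp (H2AZ Abcam), 513 bp (H2AZ CST) and 538 bp (H3K79me2). H3K79me2 ended at 957 bp. A second H3.3 peak, with a −log10 q of 9.92, lay near the other end, between 4324 and 4542 bp.

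HLA-F, another non-classical heavy chain (29723434 to 29738532, 15099 bp), had the strongest H2A.Z of the 4 heavy chains. The −log10 q was 84.3 in H2AZ CST, 275 in H2AZ Abcam, 17.6 in H3.3, 20.1 in H4K16ac and 92.3 in H3K79me2. These H2A.Z values exceeded those of 93.6% and 95.5% of genes with a start peak in the H2AZ CST and H2AZ Abcam lists. The H3K79me2 value exceeded that of 34.8%. The marks stopped within 1 kb: H2AZ CST reached 952 bp and H3K79me2 988 bp, so that 6.55% of the gene was under H3K79me2. Beyond that the only peak within 5 kb of the gene was one of H4K16ac, with a −log10 q of 10.2, over the pseudogene MICE downstream.

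B2M, the light chain shared by all class I molecules (chromosome 15, 44711517 to 44718145, 6629 bp), had low H2A.Z and high H3K79me2, the reverse of HLA-F. The −log10 q reached 382 in H3K79me2 but 13 in H2AZ CST, 42.5 in H2AZ Abcam and 3.7 in H4K16ac, and the nearest H3.3 peak was 16799 bp away. Among genes with a start peak in the same list it exceeded 15.1% for H2AZ CST, 21.6% for H2AZ Abcam and 2.18% for H4K16ac, but 76% for H3K79me2. The authors' fold enrichment at the H3K79me2 summit was 74.7, the highest of the start peaks of the 9 genes in that list. H3K79me2 also reached farther into the gene than at the heavy chains. A peak of 1684 bp from −15 to 1668 bp was followed by weaker ones up to 2449 and 3445 bp, with −log10 q of 8.69 and 9.83, and 46.9% of the gene was covered. Of the 7197 genes with the 4 other lists at the start, 95.8% had H3.3 there as well, a share computed after HLA-B and B2M were seen to lack it.

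The B2M promoter is printed because it is shared with PATL2, which encodes a protein of the PAT1 family and starts on the opposite strand at −127 bp from the B2M start. The bases between the starts, chr15:44711391-44711516 on the plus strand, hold a match to the NF-κB type pattern on the other strand, TGACG and the letters ATTGG, all in capitals.
B2M: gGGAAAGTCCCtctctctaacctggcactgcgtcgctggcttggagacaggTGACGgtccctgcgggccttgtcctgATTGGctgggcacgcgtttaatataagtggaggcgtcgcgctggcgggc
H2AZ Abcam had a peak on either side of the B2M start. One ran from −375 to −74 bp, over the first bases of this stretch, with its summit 43 bp from a listed PATL2 start, and the other from 105 to 597 bp. The H2AZ CST, H4K16ac and H3K79me2 peaks near the start had their summits on the B2M side, at 167, 304 and 350 bp. Beyond such positions the signal of the shared promoter cannot be split between the genes.

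**Figure D2:**
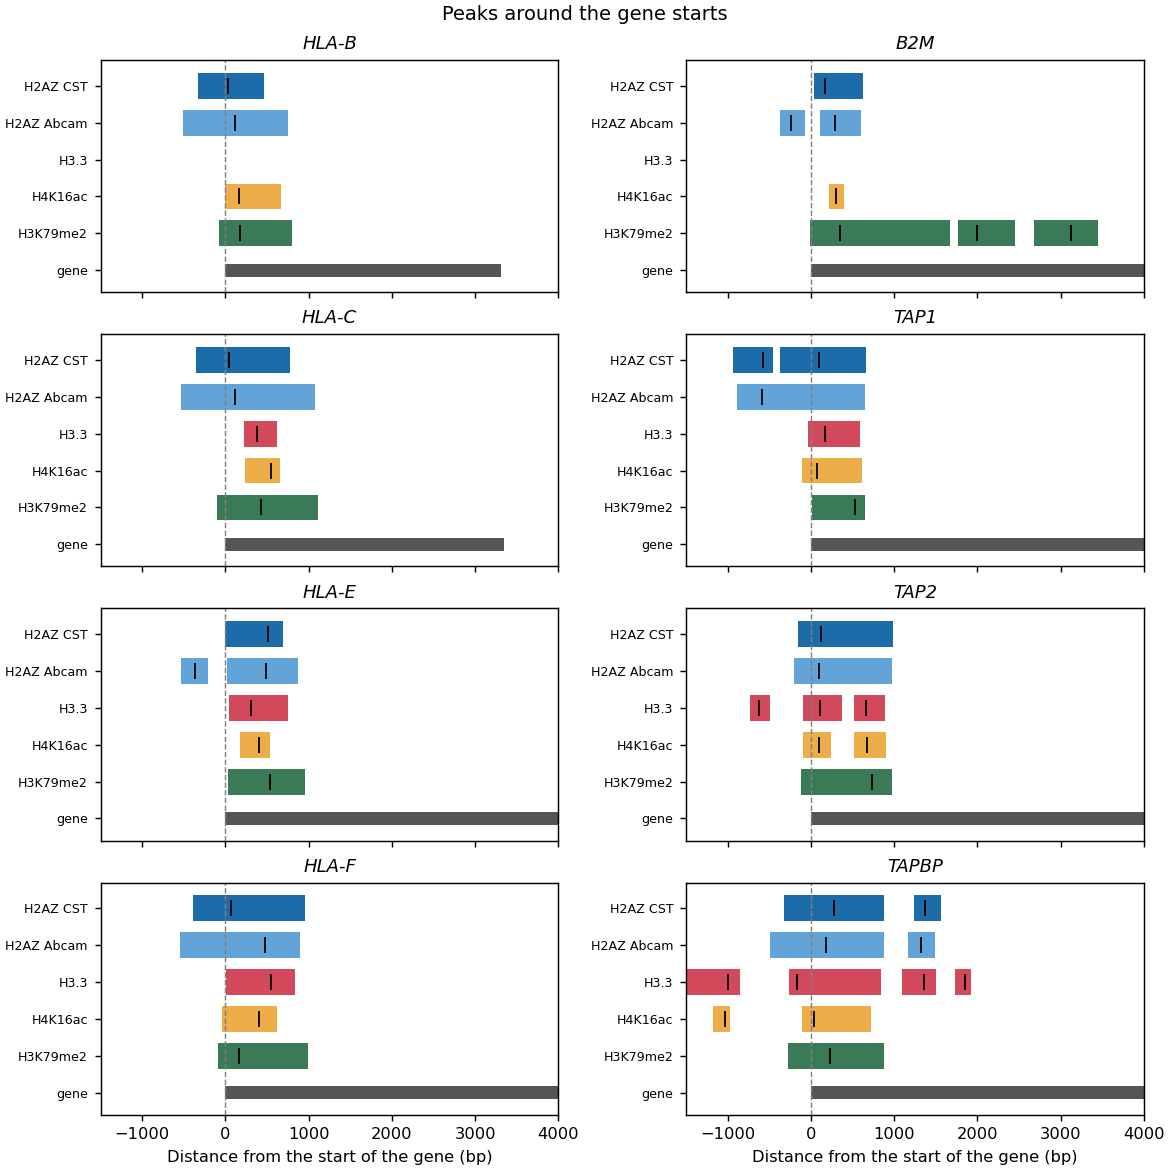
Peaks from 1500 bp before to 4000 bp after the start of 8 genes. Bars are the authors' peaks, coloured by list, black ticks are summits, the dashed line is the start (for HLA-E the lower-coordinate end) and the grey bar is the gene. The marks end within about 1 kb of the start, except at B2M, where H3K79me2 goes on to 3445 bp, and at TAPBP.

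TAP1 and TAP2, the subunits of the peptide transporter, lie next to each other in the class II region of chromosome 6 with the immunoproteasome gene PSMB8 between them. TAP2 (32821831 to 32838739, 16909 bp) had the highest H2A.Z of the 9 genes. The −log10 q was 86.1 (H2AZ CST), 298 (H2AZ Abcam), 47 (H3.3), 16.5 (H4K16ac) and 36.4 (H3K79me2). It exceeded 94.2% of genes with a start peak in the H2AZ CST list, 97.2% in the H2AZ Abcam list and 80% in the H3.3 list, but 18.5% in the H3K79me2 list. The signals shared 1 place: summits of H2AZ CST, H2AZ Abcam, H3.3 and H4K16ac fell at 120, 97, 111 and 98 bp after the start. The H3K79me2 summit lay deeper, at 736 bp. H3.3 had further peaks on both sides, with summits at −622 and 660 bp, and H4K16ac had others at 674 and 9221 bp. The TAP2 promoter, the 250 bases at chr6:32838740-32838989 on the minus strand, is printed because the gene had the highest H2A.Z. It carries the interferon response type pattern and TGACG, in capitals, and no CCAAT box.
TAP2: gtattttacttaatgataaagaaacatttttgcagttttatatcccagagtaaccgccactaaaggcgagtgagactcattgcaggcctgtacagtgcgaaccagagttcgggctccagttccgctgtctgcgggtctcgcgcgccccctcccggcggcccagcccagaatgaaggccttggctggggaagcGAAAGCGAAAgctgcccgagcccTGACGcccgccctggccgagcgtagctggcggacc

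TAP1 (32845209 to 32853704, 8496 bp) shares its promoter with PSMB9, an immunoproteasome subunit that starts on the opposite strand at −488 bp. Its strongest peaks had a −log10 q of 51.6 in H2AZ CST, 250 in H2AZ Abcam, 14.3 in H3.3, 8.16 in H4K16ac and 10.9 in H3K79me2. The value of 10.9 was the lowest for H3K79me2 among the 9 genes and exceeded 5.71% of genes with a start peak. H2AZ CST formed a peak on each side, with a −log10 q of 45.5 at 96 bp after the TAP1 start and 51.6 at −576 bp, on the PSMB9 side. H2AZ Abcam joined them into 1 peak of 1545 bp whose summit was also on the PSMB9 side, at −588 bp. The H3.3, H4K16ac and H3K79me2 peaks, in contrast, had their summits on the TAP1 side, at 175, 69 and 529 bp. Further H2AZ CST, H2AZ Abcam and H4K16ac peaks within 5 kb of the far end of TAP1 lay at the start of PSMB8.

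TAPBP (33299694 to 33314078, 14385 bp), which encodes tapasin, had all 5 lists at its start and a crowded far end that belongs to a neighbour. Within 1 kb of the start the −log10 q was 51.9 in H3K79me2, 14.5 in H4K16ac, 25.8 in H3.3, 140 in H2AZ Abcam and 38.1 in H2AZ CST. The H3.3 value is that of a peak with its summit at −991 bp, within the bounds of the neighbour ZBTB22. The peak on the start itself had 15. The start block ran to 875 bp for H2AZ CST and 879 bp for H3K79me2. Smaller H2AZ CST, H2AZ Abcam and H3.3 peaks followed up to 1920 bp, and then none of any list before 8768 bp. There H3.3 and H4K16ac coincided, with summits at 8873 and 8862 bp, and again at 9623 and 9715 bp together with a weak H3K79me2 peak at 9538 bp. The far end overlaps RGL2, a gene of the Ral signalling pathway. RGL2 ends at 12466 bp in the gene table, but the promoter table lists its start beyond TAPBP, at 15136 bp, and distances are from there. H3.3 reached 70.3 with its summit 344 bp from that listed start, H2AZ CST 39.2 at 305 bp, H2AZ Abcam 143 at 350 bp and H3K79me2 82.8 at 288 bp, all above the values at the TAPBP start. H4K16ac was lower there, at 10.2. Of the 14 H3.3 peaks in and around TAPBP, 4 had their nearest listed start in TAPBP, 7 in RGL2 and 3 in ZBTB22. The 26.4% of TAPBP covered by H3K79me2 includes this end.

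CIITA, the activator of class II genes (chromosome 16, 10866206 to 10943021, 76816 bp), had no peak of any list within 12 kb of its lower-coordinate end. The gene is known for several alternative promoters used in different cell types. Counted from that end, the nearest peaks were small H2A.Z peaks at nearly the same base, with summits at 12665 bp for H2AZ CST and 12666 bp for H2AZ Abcam and −log10 q of 7.9 and 6.76. These were lower than at the start of any other gene of the group. Inside the gene H3.3 and H4K16ac coincided again, with summits at 56141 and 56186 bp and at 57842 and 57865 bp, and −log10 q from 7.42 to 11.6. The strong signals all lay at the far end, where DEXI, a gene of little known function, starts on the minus strand within CIITA. Close to the DEXI start the −log10 q was 19.8 in H2AZ CST with its summit 226 bp away, 57.5 in H2AZ Abcam at 223 bp, 13.6 in H3.3 at 327 bp and 50.5 in H3K79me2 at 257 bp. H4K16ac had no peak there. H3K79me2 extended from there into DEXI, with a peak of −log10 q 94.4 at 794 bp and 5 weaker ones up to 8384 bp from it. The first peaks of CLEC16A, just beyond CIITA, reached 116 for H2AZ Abcam and 204 for H3K79me2. All 7 H3K79me2 peaks inside CIITA lay within the bounds of DEXI or within 1 kb of its start, so the 5.41% of CIITA covered by this mark is the same sequence as DEXI and its start.

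**Figure D3:**
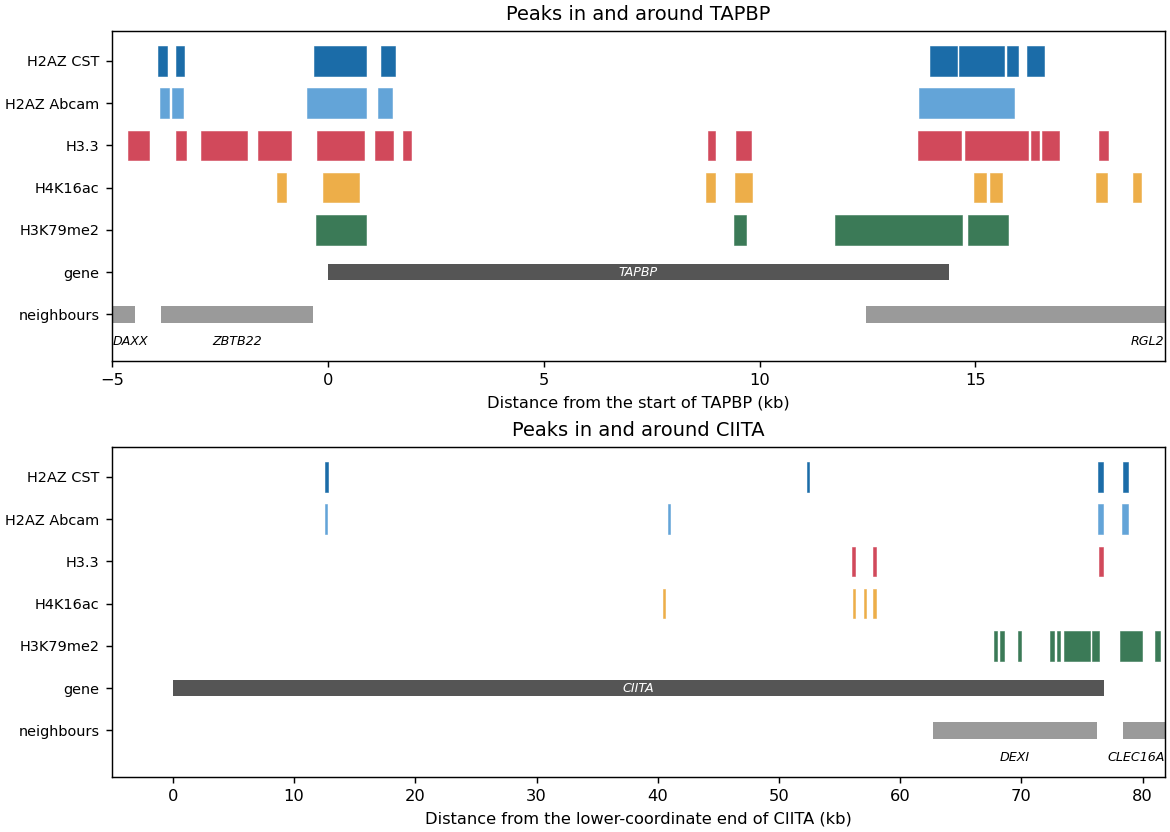
Peaks in TAPBP and CIITA and 5 kb on either side. The x axis is the distance from the TAPBP start or the lower-coordinate end of CIITA in kb, coloured bars are the authors' peaks by list, dark bars the gene and pale bars its protein-coding neighbours within 5 kb. In both genes the far end carries peaks close to the start that the promoter table lists for a neighbour, RGL2 or DEXI, and CIITA has no peak in its first 12 kb.

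Set side by side, most of the 9 genes lay above the median of marked genes in H2A.Z and below it in H3K79me2, with B2M as the clearest exception in both. H2AZ CST exceeded the median of genes with a start peak (35) in 7 of 9 genes. H2AZ Abcam exceeded its median (104) in 7, all but B2M and CIITA in both lists. HLA-C, TAPBP and HLA-E lay close to the H2AZ CST median, above 53.2%, 54.7% and 55.2% of genes with such a peak. H4K16ac exceeded its median (9.79) in 5 and H3.3 its median (22.9) in 3: HLA-E, TAP2 and TAPBP. At TAPBP the value is that of the peak with its summit at −991 bp, within ZBTB22. The H3.3 peak on the TAPBP start itself, at 15, was below the median. H3K79me2 exceeded its median (168) in 2, HLA-E and B2M. The genes are short, with a median length of 8496 bp against 25790 bp for all protein-coding genes. Their median length under H3K79me2 was 989 bp, against 2710 bp for all genes with it at the start and 2800 bp for those between the shortest and the longest of the group in length. B2M exceeded this with 3108 bp, and TAPBP and CIITA with 3802 and 4154 bp, in part close to the listed starts of RGL2 and DEXI. As a share of the gene, however, the median was higher than for marked genes of that length range, 19.8% against 15.1%. That range is wide and does not match the genes in length. Leaving CIITA aside, the median summit was 96 bp after the start over the 9 start peaks of H2AZ CST, 117 bp over 10 of H2AZ Abcam and 388 bp over 8 of H3K79me2. These peaks include those on the PSMB9 and PATL2 sides, and the start of HLA-E is taken as its lower-coordinate end. All 8 H3K79me2 summits lay inside the gene.

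The interferon response type pattern occurred in the 250 bases before the start of 5 of the 7 genes with a listed promoter (HLA-F, B2M, TAP1, TAP2 and TAPBP), against 2.63% of 21754 promoters of the same length. The NF-κB type pattern occurred in 4 of 7 (HLA-B, B2M, TAP1 and TAPBP; 5.54% of promoters), TGACG in 4 of 7 (24.2%) and CCAAT in 5 of 7 (32.5%), each on either strand. B2M, TAP1 and TAPBP each held a pair of overlapping matches to the interferon response type pattern. The B2M pair runs from −144 to −129 bp, within the bounds of PATL2 and outside the bases printed above. These are matches of letters in the reference sequence, not sites of binding. Other spellings of such elements were not searched, so a promoter without a match, as at HLA-B and HLA-C, is not shown to lack one. Genes with the interferon response type pattern included the highest and the lowest H3K79me2 of the group, B2M and TAP1. Most of the genes searched held it, and a link to H3K79me2 was not tested.

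Other genes of the pathway differed widely from list to list, and no difference between lists was tested. Of 11 class II genes, among them their chaperone CD74, none had H3K79me2, H3.3 or H4K16ac within 1 kb of the start, against 54.6%, 62.5% and 51.3% of all genes, while 6 had H2AZ CST and 6 H2AZ Abcam, against 69.4% and 69.9%. None of the 11 had H3K79me2 even within 5 kb of the gene (62.7% of all genes), whereas 4 had H3.3 (73.8%) and 3 H4K16ac (68.3%) there. HLA-DRA, which encodes the alpha chain of HLA-DR, HLA-DQA1 and HLA-DOB had no peak of any list in that range, and HLA-DOB is a neighbour of TAP2 by less than 5 kb. The highest start values of class II genes were 24.2 for H2AZ CST at HLA-DOA and 14.7 for H2AZ Abcam at HLA-DPB1, below those of every one of the 4 class I heavy chains. Polymorphic class II genes can also lose reads, and the part of this was not tested.

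Of 13 genes of peptide supply and loading, H2AZ CST lay at the start of 12 (69.4% of all genes), H2AZ Abcam at 13 (69.9%), H3.3 at 11 (62.5%), H4K16ac at 11 (51.3%) and H3K79me2 at 10 (54.6%). ERAP1 and LNPEP, which encode peptide trimming enzymes, had the same values in all 5 lists, so their peaks are counted for both. PSMB10, the immunoproteasome subunit outside the HLA region, had 91.3% of its length under H3K79me2, and the folding helpers CALR and HSPA5 56.4% and 53.3%, with −log10 q at the start of 299, 603 and 671. PSMB8 had no H3K79me2 at its start. PSMB9 is counted for H3.3, H4K16ac and H3K79me2 only through the peaks at the TAP1 start. Each of these lists covered 0.0% of PSMB9 itself. ERAP2, a peptide trimming enzyme, had H2AZ Abcam alone at its start. The 18 transcription factors and signalling genes had H2AZ CST, H2AZ Abcam and H3.3 at 18 starts, H3K79me2 at 17 and H4K16ac at 14. RFXAP and EZH2 had 59.9% and 50.6% of their length under H3K79me2, and the cytokine receptor gene IFNGR1 34.8%. The gene without H3K79me2 was NLRC5, the class I counterpart of CIITA, although its H2AZ Abcam reached 242. NLRC5 is not in the promoter table, so either end counted. Of 6 other class I and class I-like genes, 4 had H2AZ CST and 4 H2AZ Abcam at the start. That is 66.7% in each list, near the 69.4% and 69.9% of all genes. At the same starts 3 had H3.3 (62.5% of all genes), 1 H4K16ac (51.3%) and 2 H3K79me2 (54.6%). The pair with H3K79me2 was MICA and MICB, stress ligands of natural killer cells, at 10.9 and 60. HLA-G had no peak at its annotated start but H2AZ CST and H4K16ac peaks inside the gene, over 5.41% and 5.94% of its length.

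**Figure D4:**
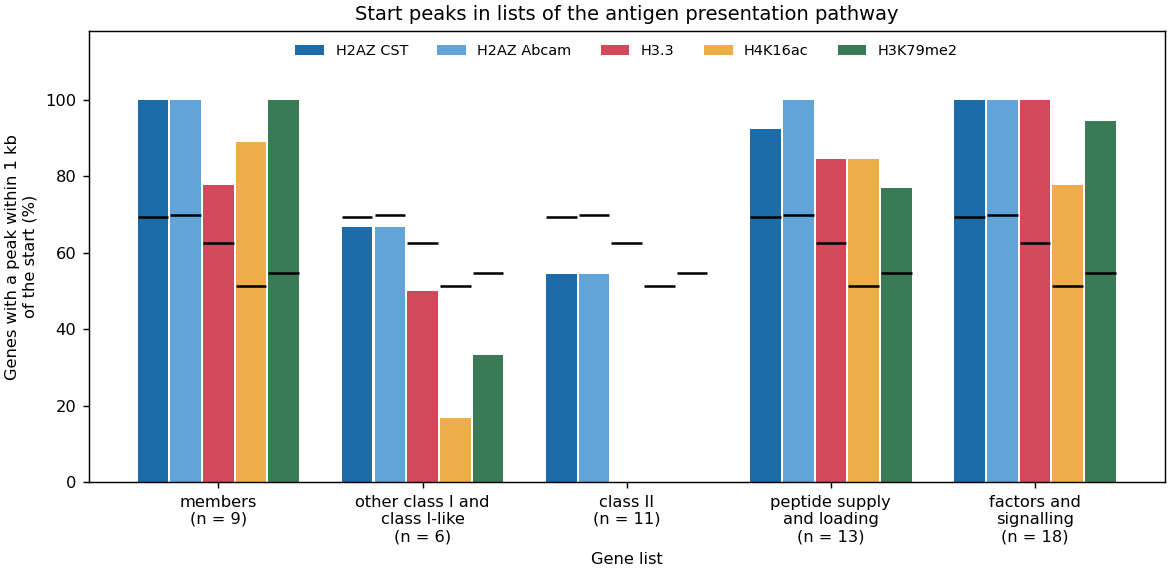
Percentage of genes with a peak within 1 kb of the start for the 9 genes and 4 further lists of the pathway, coloured by peak list. Black lines give the same percentage over all 19327 protein-coding genes. Class II genes have H2A.Z bars only, and the factors and signalling genes reach 100% for H2AZ CST, H2AZ Abcam and H3.3.

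Markers of cell types were counted for H3K79me2 within 5 kb of the gene, as a check of the label. All 5 markers of the kidney-derived line had such a peak (CDH2, PAX2, LHX1, NEFM and VIM), against 2 of 5 epithelial markers and 0 of 5 fibroblast markers, with 62.7% over all genes. The epithelial genes were KRT8 and KRT18. At the start the counts were 4 of 5 for the line, without PAX2, 2 of 5 epithelial and 0 of 5 fibroblast, with 54.6% over all genes. PAX2 had 0.306% of its length under H3K79me2. The other lists did not place the line above the epithelial markers. H2AZ CST lay at the start of 4 markers of the line, 5 epithelial and 3 fibroblast (69.4% of all genes). H2AZ Abcam lay at 4, 5 and 2 (69.9%), H3.3 at 4, 4 and 1 (62.5%) and H4K16ac at 3, 5 and 3 (51.3%).

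The genes whose start values were most like those of a member lay elsewhere in the genome. Likeness is the mean absolute difference, over the 5 lists, in the percentage of all protein-coding genes with a lower value at the start, for genes over 100 kb away. By this measure TAP1 was closest to CMTR2, an mRNA cap methyltransferase (1.49 points), and TAP2 to ATG16L2 (1.78 points). B2M was closest to SPC24, a kinetochore subunit (2.71 points), and HLA-B to C1orf115 (3.3 points), both of which also lacked H3.3 at the start. HLA-C was closest to MAGEE1 (2.42 points) and HLA-F to GDPD5 (2.38 points), HLA-E to CTSB, a lysosomal protease (2.36 points), TAPBP to LRRC3 (2.49 points) and CIITA, through the DEXI end, to LRP4 (1.3 points). With 5 values per gene and 19327 genes to choose from, a close match is easy to find.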

How the data were processed

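Peak lists of 5 antibodies in HEK293T cells, 1 library each, were the starting point. The submitters' processing notes name MACS2 2.1.0, Bowtie 1.1.2, Trimmomatic 0.33, bcl2fastq 2.17 and build hg38. Not given in the sources used here: their settings, the use of the input, the handling of duplicate or multiply placed reads, and the read depth. Each deposited peak has a linear fold enrichment (a ratio), a −log10 p-value and a −log10 q-value, all from the authors. An integer score that the authors deposited and the −log10 p were not used. Values describe or rank peaks within a list only, since lists have their own scales. The lowest −log10 q was between 2 and 2.06.

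Peaks on chromosomes 1 to 22 and X were used (between 5 and 27 peaks per list on other contigs were left out) and assigned to a gene by at least 1 bp of overlap with the gene and 5 kb around it, or with 1 kb around its start. Genes came from a RefSeq table of GRCh38.p14 (the same assembly as hg38), without its last 696 rows, whose positions refer to other contigs. Strand came from the RefSeq promoter table, which held 15413 of 19327 genes. For the rest either end counted. Exons, introns and untranslated regions were not assigned. Motifs were searched in the 250 bases before each listed start, and sequences were aligned with Biopython 1.88. Window counts were tested on simulated data. Python 3.11.15 and pandas 2.3.3 were used. A further list of cell type markers is not reported here. Members and gene lists were chosen with earlier results of these data known. All 9 members are named, with up to 3 genes per further list by H3K79me2 coverage and up to 3 without any peak. PSMB8, PSMB9, ERAP2, NLRC5, MICA, MICB, HLA-G, HLA-DOA and HLA-DPB1 were partly chosen after their values were seen. Alternatives were the window, a stricter −log10 q, the strongest peaks and the summit in place of the peak.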

Additional observations from a re-analysis of the deposited data

How the results depend on the processing

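The counts of members with a peak and the median share under H3K79me2 were recomputed under 62 alternatives (windows of 2 or 10 kb around the gene and of 250 bp or 2 kb around the start, either end, a −log10 q of at least 5, the 10000 strongest peaks, summits in place of peaks, and, chosen after seeing the data, the lower-coordinate end of HLA-E and CIITA), and 58 of them stayed within 1.5 times the count or within the interval of the share. That interval is an exact 95% binomial one over the bases of HLA-E, the gene at the median. It treats bases as independent and does not measure the spread between genes. The median share was 19.8% under each of its alternatives. With the 10000 strongest peaks of each list, H3.3 fell from 7 to 3 members within 5 kb and from 7 to 2 at the start. H4K16ac fell from 9 to 4 within 5 kb and from 8 to 4 at the start. Fewer peaks are kept under this setting, and they are a smaller part of the H3.3 and H4K16ac lists, the longest. The share of all genes was not computed for it, so whether the members fell more than other genes is not known. The 6 members with all 5 lists at the start then became 0, while they stayed 6 under the other settings of the start (a count added after seeing the data). H2AZ CST and H2AZ Abcam then lacked B2M and CIITA at the start, and H3K79me2 lacked TAP1 and TAP2. With a −log10 q of at least 5 the H4K16ac peak of B2M was lost, and within 250 bp of the start the H3K79me2 peak of CIITA. With the lower-coordinate end of CIITA as its start, no list had a peak there, in place of 4 lists. HLA-B and B2M had no H3.3 under any of these settings. This adds nothing where a setting only removes peaks or narrows a window. The nearest H3.3 peaks, 42567 bp from the HLA-B start and 16799 bp from the B2M start, lay outside the wider windows too. No paired analysis was possible because each antibody has 1 library. The unknown depth limits what a missing peak shows.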

Other observations

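The class I pseudogenes of chromosome 6, examined after the values of the genes were seen, held peaks in a few cases. Of 13 annotated pseudogenes named HLA with a single letter, 9 had no peak of any list within their bounds, 2 had H2AZ CST, 3 H2AZ Abcam, 3 H3.3, 4 H4K16ac and 2 H3K79me2. Among 14873 other pseudogenes of 88 to 7390 bp, the same range of length, 92.8% had no peak. Between 2.19% (H2AZ CST) and 2.66% (H4K16ac) of them had a peak of a given list. Among the 555 transcribed ones 75.0% had no peak, and between 8.65% (H3K79me2) and 13.2% (H3.3 and H4K16ac) had one of a given list. HLA-L (30259562 to 30266951) had all 5 lists, with a −log10 q of 223 for H2AZ Abcam, 80.4 for H2AZ CST and 29.5 for H3K79me2. HLA-V (29791906 to 29797807) had 4 lists, with 107 for H2AZ Abcam and no H3K79me2, and HLA-J (30005971 to 30009956) had 4, with 17.5 for H4K16ac and 17.2 for H3K79me2 but no H2AZ CST. HLA-K had H4K16ac alone, at 8.79. HLA-L, HLA-V and HLA-J are annotated as transcribed pseudogenes. The fourth transcribed one, HLA-H, had no peak. Copies that resemble each other closely can lose reads, which was not tested.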
